A study of Mus musculus with 8 samples.

Results

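Nuclear hormone receptors are transcription factors that bind DNA and are, for many members, switched by a small fat-soluble ligand. They were followed here across 8 RNA-seq libraries of alphaTC6, a line of pancreatic alpha cells from the mouse, in which Klf4 had been knocked down or not. The 44 members were taken from a fixed list of gene symbols, all of which were found among the 55536 genes of the count table. Of these 44 genes, 25 had a mean of at least 1 CPM (its counts relative to the scaled total of the library) over the 8 libraries and 19 did not. The test for changes was made on the 16333 genes with enough counts, which included 29 members. All cells carried the WT genotype label and were reverse transfected for 48 h with RNAiMax Lipofectamine, either with a pool of siRNAs against Klf4 (4 libraries) or with a scramble siRNA (4 libraries). Batch 1 held scramble 1 and 2 and Klf4 siRNA 1, 2 and 4. Batch 2 held scramble 3 and 4 and Klf4 siRNA 3. The labels do not say what set the batches apart, and the control cells were transfected too, so no library shows untransfected cells. The series calls its libraries biological replicates without naming separate cultures, so the p-values measure the spread between these libraries, which may be technical.

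As background, nuclear receptors fall into functional groups. Steroid receptors such as the glucocorticoid receptor wait for their hormone in complexes with chaperones, whereas the receptors for thyroid hormone, retinoic acid, fatty acids and oxysterols mostly sit on DNA as heterodimers with a retinoid X receptor (RXR) and exchange corepressors for coactivators when ligand binds. Orphan receptors such as the NR4A family act without a known physiological ligand, and the NR4A genes are induced within a short time of a stimulus. In islets, receptors of this family have been tied to fuel sensing, hormone gene expression and endocrine cell maturation.

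Total counts ran from 45954151 to 64185987 per library, and no pair of libraries agreed within counting noise. Klf4, a zinc finger transcription factor and the target of the siRNA pool, was at 39.2, 35.1, 46.3 and 46.8 CPM in scramble 1 to 4 and at 12.5, 11.5, 19.8 and 18.8 CPM in Klf4 siRNA 1 to 4. The groups did not overlap, and the log2 fold change was -1.33 (SE 0.17, edgeR adjusted p = 0.0083). Without scramble 1 the value was -1.27 with an adjusted p of 0.0524, and in batch 1 alone it was -1.39 with an adjusted p of 0.104. Alpha cell markers were present: 8 of 10 listed reached 1 CPM, with Gc and Dpp4 under it. Of 7 listed beta cell markers 2 reached it, Nkx6-1 at a mean of 125 CPM and Mafa at 3.17 CPM. The beta cell genes Ins1, Ins2 and Pdx1 had 0 counts in all libraries, and Iapp and Slc2a2 lay under 1 CPM.

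Orphan receptors made up 13 of the 25 members at 1 CPM or more and 22 of the 44 listed, a similar share. By functional group, 13 of 22 orphan receptors, 2 of 3 RXRs, 3 of 3 retinoic acid receptors, 4 of 5 lipid sensors, 2 of 5 steroid receptors and 1 of 3 other hormone receptors reached 1 CPM, as did 0 of 3 receptors for bile acids and xenobiotics. To compare genes, counts were also divided by exon length (RPKM, which is CPM per kilobase of exon). Nr4a1, an immediate early orphan receptor, had the highest mean level at 46.4 RPKM, but with a spread of 20.2 (SD, n = 8). Ppard, a fatty acid sensor, was at 25.7 ± 1.71 RPKM (SD, n = 8). Thra, a thyroid hormone receptor, was at 24.0 ± 1.90 RPKM, and Esrra, an orphan receptor that drives mitochondrial genes with PGC-1 coactivators, at 22.8 ± 0.835 RPKM. The ranges of Ppard, Thra and Esrra overlapped, and that of Nr4a1 (25.4 to 74.4 RPKM) overlapped the range of Ppard (22.8 to 27.2), so neighbours in this order are not resolved, whereas every Nr4a1 library lay above every Esrra library.

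Below them, Nr1h2 (the oxysterol receptor LXR beta) had a mean level of 19.3 RPKM, Rxrb 18.4, the orphan receptor Nr2f6 11.7 and the orphan receptor Nr2c2 10.1 RPKM. A middle group held the glucocorticoid receptor gene Nr3c1 at 6.46, Rxra at 5.82, Rorb at 5.47, Esrrg at 5.34, Nr4a2 at 5.30, Nr2c1 at 5.09 and Rarg at 4.05 RPKM. Nr2f2, Nr2f1 and Nr4a3 followed at 3.51, 3.42 and 3.36 RPKM. Rara was at 2.35, Nr6a1 at 1.57, Rora at 1.56, the mineralocorticoid receptor gene Nr3c2 at 1.26, Rarb at 1.21, Ppara at 0.744 and Nr1h3 (LXR alpha) at 0.584 RPKM. Within families the level was therefore unequal: the mean RPKM of Nr1h2 lay well above that of Nr1h3, that of Ppard above those of Ppara and Pparg, and that of Rxrb above that of Rxra in these libraries.

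**Figure D1:**
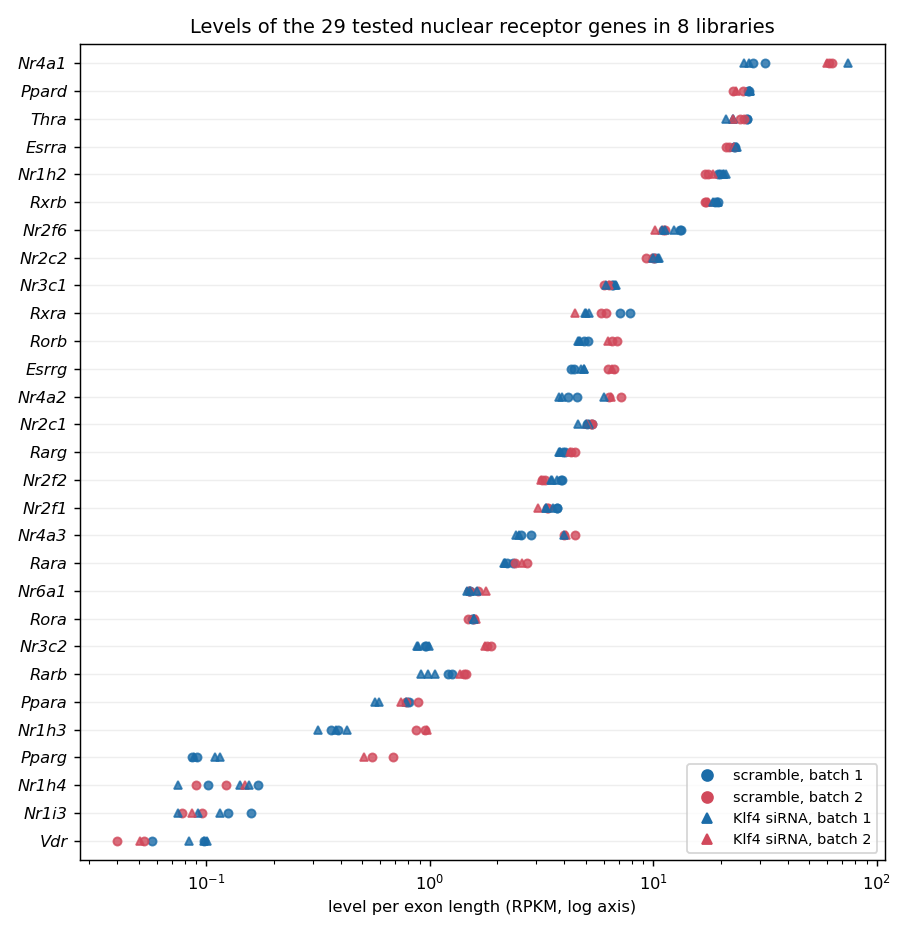
Levels of the 29 tested nuclear receptor genes in RPKM on a log axis, with a point for each of the 8 libraries (circles scramble, triangles Klf4 siRNA, blue batch 1, red batch 2). Nr4a1 has the highest mean at 46.4 RPKM, and Pparg, Nr1h3 and Nr3c2 separate by batch.

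The threshold of 1 CPM fell between Nr1h3 at a mean of 1.47 CPM and Pparg, the adipogenic fatty acid sensor, at 0.823 CPM. Besides Pparg, the members under 1 CPM that had enough counts to test were Nr1i3 (the xenobiotic sensor CAR) at 0.455 CPM, the vitamin D receptor gene Vdr at 0.409 CPM and the bile acid receptor gene Nr1h4 at 0.289 CPM. The other 15 were not tested. Among them, 5 had 0 counts in all 8 libraries: Hnf4g, Nr2e3, the estrogen receptor gene Esr1, the progesterone receptor gene Pgr and Nr0b1. Nr0b2, a receptor that lacks a DNA-binding domain and represses others, had 2 to 11 counts per library, Esrrb 3 to 16 and Nr5a1 0 to 6. Thrb, Nr1i2, Hnf4a, Rxrg, Nr2e1, Esr2 and Nr5a2 had at most 4 counts in any library.

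The comparison of Klf4 siRNA with scramble addressed gene regulation by Klf4 in cultured alpha cells. After Klf4 siRNA, 4 of the 29 tested members (13.8%) were lower and 0 were higher by edgeR's quasi-likelihood test with batch as a term, at a Benjamini-Hochberg adjusted p under 0.05. The members that fell were the RXR gene Rxra, the thyroid hormone receptor gene Thra and the orphan receptors Nr2f6 and Rorb. Of all 16333 genes tested, 11.7% passed, 6.81% lower and 4.88% higher, so the members' share lay near the background. At an unadjusted p under 0.05 there were 10 of 29 members (34.5%), of which Nr1h2 and Esrrg were higher, beside 3908 of all genes tested (23.9%). DESeq2 called 3 members lower and 0 higher. The median log2 fold change was 0.0045 over the 29 members and 4.3e-05 over all genes tested, and the median size of change was 0.082 against 0.077. In bulk RNA, fewer cells that express a gene and less RNA per cell cannot be told apart.

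Rxra, the partner of retinoic acid, thyroid hormone, fatty acid and oxysterol receptors, lies on chromosome 2 at 27676440 to 27762957, plus strand (mouse GRCm38). It was at 43.0, 38.6, 33.5 and 31.9 CPM in scramble 1 to 4 and at 27.4, 27.1, 24.4 and 28.3 CPM in Klf4 siRNA 1 to 4. Every scramble library lay above every Klf4 siRNA library. Its log2 fold change was -0.52 (SE 0.044, 95% interval -0.61 to -0.42, edgeR adjusted p = 1.01e-07), which left 69.9% of the scramble level. Within batches the mean log2 CPM differed by -0.56 in batch 1 and -0.42 in batch 2, and the change passed the threshold in all 16 alternatives run. Its paralog Rxrb did not pass: it was at 77.5, 74.9, 67.9 and 68.7 CPM in scramble and at 77.2, 77.0, 69.8 and 73.2 CPM in Klf4 siRNA libraries, with overlapping groups. The interval of the Rxrb log2 fold change ran from -0.058 to 0.069 and did not reach the interval of Rxra, though the difference between the genes was not tested. The third paralog, Rxrg, had at most 1 count per library.

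Thra lies on chromosome 11 at 98740638 to 98769006, plus strand, and encodes the thyroid hormone receptor that these cells express. It was at 121, 121, 113 and 118 CPM in scramble 1 to 4 and at 105, 105, 105 and 97.9 CPM in Klf4 siRNA 1 to 4, again without overlap. Its log2 fold change was -0.20 (SE 0.032, edgeR adjusted p = 0.000215), with -0.24 within batch 1 and -0.14 within batch 2. It passed in all 16 alternatives run. The exons of Thra share 263 of 4614 bases with Nr1d1 on the opposite strand, and whether counting used strand is not given in the sources used here. The change of Nr1d1 itself was -0.011 on the log2 scale (edgeR adjusted p = 0.92).

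Nr2f6, an orphan receptor of the COUP-TF family that mostly represses, lies on chromosome 8 at 71374123 to 71381960, minus strand. It was at 39.5, 39.8, 32.9 and 33.8 CPM in scramble and at 32.6, 37.1, 30.3 and 33.7 CPM in Klf4 siRNA libraries. The groups overlapped across batches, while within each batch the Klf4 siRNA libraries were below the scramble libraries. Its log2 fold change was -0.18 (SE 0.042, edgeR adjusted p = 0.00745), with -0.20 within batch 1 and -0.14 within batch 2. Without scramble 1 the value was -0.17 (adjusted p = 0.053) and without scramble 2 it was also -0.17 (0.0563), so the size held while the call ended. With Klf4 siRNA 4 placed in batch 2 the Nr2f6 value was -0.12 (adjusted p = 0.181), and with no batch term it was -0.13 (0.534). Ocel1 on the opposite strand overlaps 54.4% of the Nr2f6 exon bases. It was at a mean of 12.8 CPM and its log2 fold change was -0.11 (edgeR adjusted p = 0.316).

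Rorb, a receptor that binds the same DNA elements as the clock repressors of the REV-ERB group, lies on chromosome 19 at 18930605 to 19111196, minus strand. It was at 54.4, 56.7, 76.1 and 72.6 CPM in scramble and at 51.5, 52.3, 69.6 and 51.2 CPM in Klf4 siRNA libraries. The batches differed more than the treatments: the scramble libraries of batch 1 lay under Klf4 siRNA 3 of batch 2. The log2 fold change was -0.10 (SE 0.031, edgeR adjusted p = 0.0375). That call ended when any of 5 libraries was left out, at an adjusted p of 0.0718 without scramble 1, 0.232 without scramble 2, 0.107 without scramble 3, 0.073 without Klf4 siRNA 1 and 0.15 without Klf4 siRNA 3. DESeq2 gave Rorb an adjusted p of 0.0558, and edgeR gave 0.0674 with no filter and 0.145 in batch 1 alone. The Rorb value was -0.20 with Klf4 siRNA 4 placed in batch 2 (adjusted p = 0.302) and -0.21 with no batch term (0.577).

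**Figure D2:**
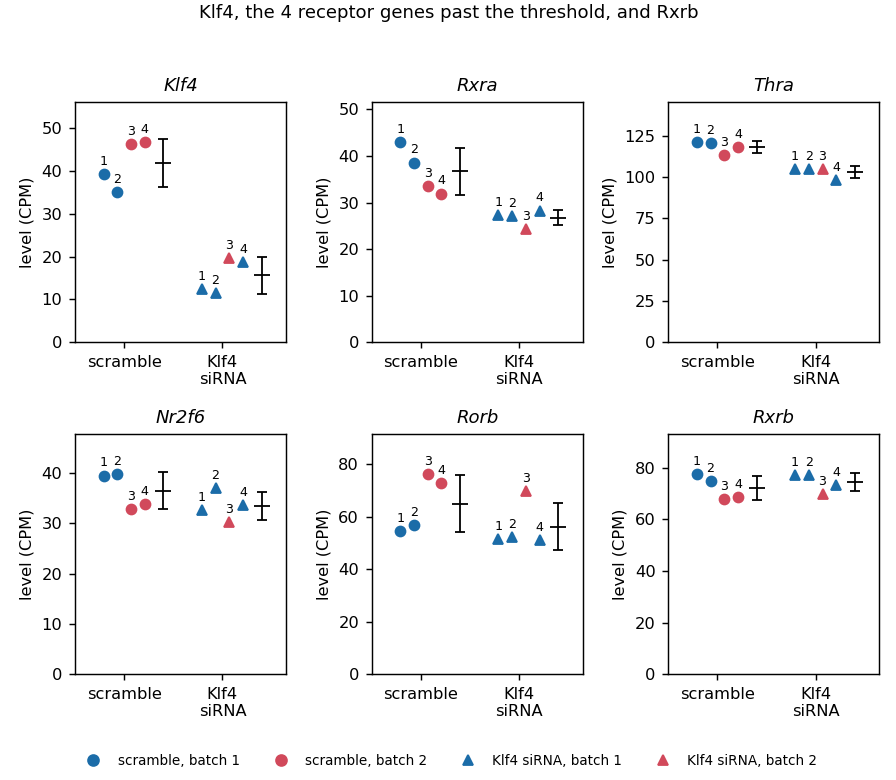
CPM on linear axes from 0 for Klf4, the 4 members that fell and Rxrb, with a numbered point per library (blue batch 1, red batch 2) and black bars for the group mean and SD (n = 4). Rxra and Thra show no overlap between treatments, whereas Nr2f6, Rorb and Rxrb overlap.

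Promoter windows are shown for 3 of the 4 members that fell (Rxra, Nr2f6 and Rorb; the promoter of Thra was not analysed here), since Klf4 belongs to a family known to bind GC-rich and CACCC-type DNA. The windows hold 250 bases before the RefSeq gene start (GRCm38.p6), written 5′ to 3′ on the gene's strand. Capitals mark CACCC and CCGCCC on either strand, where GGGTG and GGGCGG are the other strand's letters, and overlapping copies of a word are counted. The windows lie at chr8:71381953-71382202 (minus strand) for Nr2f6, chr19:19111197-19111446 (minus strand) for Rorb and chr2:27676951-27677200 (plus strand) for Rxra. The Rxra window lies inside the GENCODE span of the gene and overlaps none of its exons.
Nr2f6: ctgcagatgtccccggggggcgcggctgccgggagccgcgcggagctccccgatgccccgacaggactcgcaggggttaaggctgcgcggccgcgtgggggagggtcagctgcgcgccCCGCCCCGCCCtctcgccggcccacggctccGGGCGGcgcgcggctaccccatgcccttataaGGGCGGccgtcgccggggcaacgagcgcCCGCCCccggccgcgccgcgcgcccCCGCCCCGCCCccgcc
Rorb: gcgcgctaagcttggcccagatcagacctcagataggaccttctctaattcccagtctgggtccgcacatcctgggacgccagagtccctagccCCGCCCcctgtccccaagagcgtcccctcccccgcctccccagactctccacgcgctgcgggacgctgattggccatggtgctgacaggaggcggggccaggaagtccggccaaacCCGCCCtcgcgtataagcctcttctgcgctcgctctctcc
Rxra: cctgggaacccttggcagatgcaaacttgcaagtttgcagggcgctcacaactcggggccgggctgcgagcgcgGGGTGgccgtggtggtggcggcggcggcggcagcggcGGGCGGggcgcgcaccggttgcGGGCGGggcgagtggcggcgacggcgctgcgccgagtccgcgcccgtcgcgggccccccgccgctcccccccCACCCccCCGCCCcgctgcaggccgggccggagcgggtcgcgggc
The Nr2f6 window held 7 copies of CCGCCC and 0 of CACCC, the Rorb window 2 and 0, and the Rxra window 3 and 2. Across all 32851 promoter windows of this length, 52.0% held CACCC and 32.7% held CCGCCC. Among the 27 tested members with a window, 18 (66.7%) held CACCC and 17 (63.0%) held CCGCCC. The first of these words was in 1 of the 3 members that fell and in 17 of the 24 that did not pass (70.8%). The second was in 3 of 3 and in 14 of 24 (58.3%). Members were taken with 1 window per gene, whereas the 32851 windows were not limited to tested genes. The shares of the members and of all windows are therefore not from like sets, and no enrichment was tested. These matches describe letters and show no binding.

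Among the other partners of RXR, the retinoic acid receptors did not pass the test. Rarb, itself a retinoic acid target, was at 6.64, 6.37, 7.68 and 7.48 CPM in scramble and at 4.81, 5.55, 7.16 and 5.18 CPM in Klf4 siRNA libraries. Klf4 siRNA 3 of batch 2 lay inside the scramble range, and the Klf4 siRNA libraries of batch 1 lay under it. The log2 fold change of Rarb was -0.23 (SE 0.076, edgeR adjusted p = 0.0518). Leaving out scramble 4 or Klf4 siRNA 3 took it to an adjusted p of 0.045 and 0.0378. It also passed with no filter (0.0409), with a filter of 5 CPM (0.0417) and in batch 1 alone (0.048). Top2b on the opposite strand covers 34.1% of the Rarb exon bases and had a log2 fold change of -0.017. Rara and Rarg had log2 fold changes of -0.046 and -0.055, with intervals of -0.18 to 0.083 and -0.15 to 0.043.

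Lipid sensors did not pass in either direction. Nr1h2 was at 66.4, 65.4, 57.0 and 58.8 CPM in scramble and at 71.1, 69.1, 62.1 and 69.2 CPM in Klf4 siRNA libraries, above the scramble libraries of the same batch each time. Its log2 fold change was 0.088 (SE 0.029, edgeR adjusted p = 0.0547), and without Klf4 siRNA 4 the adjusted p was 0.0397. Nr1h2 also passed with a filter of 5 CPM (0.0438) and, at 0.133, with a replicate block in place of batch (0.0456). Ppara, which controls fatty acid oxidation, was at 3.10, 3.04, 3.01 and 3.38 CPM in scramble and at 2.17, 2.99, 2.87 and 2.28 CPM in Klf4 siRNA libraries. These groups did not overlap, yet the log2 fold change of -0.25 (SE 0.11) had an edgeR adjusted p of 0.183. Ppard, the most abundant of the lipid sensors per length, had a log2 fold change of 0.0045 with an interval of -0.059 to 0.068. Nr1h3 at 0.045 (interval -0.24 to 0.33) and Pparg at -0.11 (-0.52 to 0.29) were measured with wider intervals. Over the 14 alternatives in which Pparg was tested its value ran from -0.80 to 0.22, without passing in any.

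Steroid receptors did not pass the test. The Nr3c1 log2 fold change was 0.012 with an interval of -0.065 to 0.089, and that of Nr3c2 was -0.062 with an interval of -0.20 to 0.077. Over the 16 alternatives the Nr3c2 value ran from -0.31 to -0.043, without passing in any. Low counts left the changes of Vdr (0.25, interval -0.27 to 0.77), Nr1h4 (0.059, -0.59 to 0.70) and Nr1i3 (-0.43, -0.92 to 0.066) unresolved. Most of the exon bases of Nr1i3 (74.9%) also overlap Tomm40l on the opposite strand, which was at a mean of 81.1 CPM and itself fell by 0.17 on the log2 scale (edgeR adjusted p = 0.000818). Its part in the Nr1i3 counts was not tested.

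Orphan receptors other than Nr2f6 and Rorb did not pass. The COUP-TF genes Nr2f1 and Nr2f2, developmental regulators related to Nr2f6, had log2 fold changes of -0.13 (edgeR adjusted p = 0.0795) and -0.087 (adjusted p = 0.181). With a filter of 5 CPM Nr2f1 passed at -0.135 (edgeR adjusted p = 0.0469). Esrrg, a partner in mitochondrial gene control, had 0.11 (edgeR adjusted p = 0.0979), and without scramble 3 it passed at 0.13 with an adjusted p of 0.0477. The Esrrg value turned to -0.014 with Klf4 siRNA 4 placed in batch 2 and to -0.034 with no batch term. Esrra had 0.045 (interval -0.015 to 0.11), Nr2c1 -0.076 (-0.17 to 0.019), Nr2c2 0.034 (-0.031 to 0.099), Rora 0.04 (-0.052 to 0.13) and Nr6a1 0.082 (-0.033 to 0.20). Mrps25 on the opposite strand overlaps 30.7% of the Nr2c2 exon bases, was at a mean of 48.6 CPM and had a log2 fold change of 0.0076. Its part in the level and change of Nr2c2 was not tested. Of the 25 members at 1 CPM or more, 18 had a treatment interval that stayed within 0.3 log2 units of 0. That count was made whether or not a member passed, and it includes Thra (-0.27 to -0.14), which did. The share over all genes tested was not computed, so the count does not mark these members as unchanged. The NR4A genes are described with the batches.

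**Figure D3:**
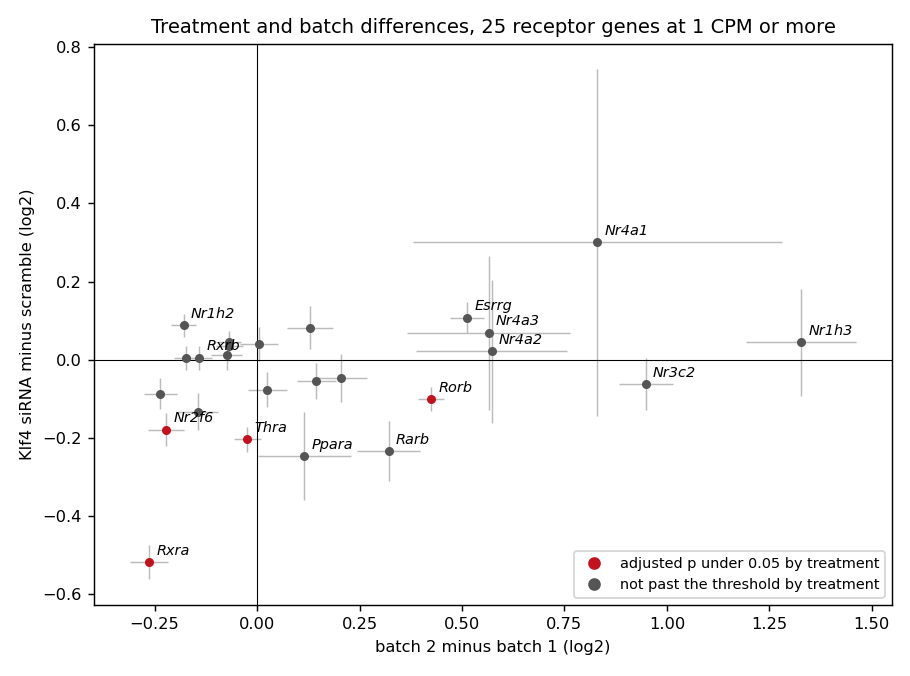
Log2 differences of the 25 members at 1 CPM or more from the same fit, by batch (batch 2 minus batch 1, horizontal) and by treatment (Klf4 siRNA minus scramble, vertical), with bars of 1 SE. Rxra lies lowest at -0.52 by treatment, and Nr1h3, at 1.33 by batch, is in the set only through its level in batch 2.

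The batches differed in more receptors than the treatments did. By the batch term of the same edgeR fit, 16 of the 29 tested members (55.2%) passed, 8 higher and 8 lower in batch 2, and DESeq2 called 9 higher and 7 lower. Over all tested genes 32.7% passed, 16.8% higher and 15.9% lower in batch 2. Among the members at 1 CPM or more, 14 of 25 passed, 7 in each direction. Other genes moved with the batches too: the summed CPM of the 10 alpha cell markers was 5628 to 5939 in batch 1 and 12576 to 13917 in batch 2. The 7 beta cell markers summed to 107 to 123 and 139 to 152 CPM, nearly all of it Nkx6-1 (a mean of 113 in batch 1 and 144 in batch 2), with Ins1, Ins2 and Pdx1 at 0. The 3 duct cell markers summed to 1.07 to 1.57 and 3.74 to 4.63 CPM, with 1 of 3 (Sox9) at 1 CPM or more and Cftr at 0. Of the 5 mesenchymal markers 2 reached 1 CPM and the sums overlapped, at 18.9 to 27.2 and 19.5 to 21.2 CPM, while Pdgfra differed by -1.12 on the log2 scale (edgeR adjusted p = 2.94e-08). The 3 immune cell markers summed to 1.56 to 1.67 and 2.00 to 2.50 CPM, with 1 of 3 (Cd68) at 1 CPM or more. The part of these differences in the receptor results was not tested.

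Nr1h3, the LXR that is itself an LXR target, reached the mean of 1 CPM only through batch 2, with 0.943 CPM in batch 1 and 2.34 CPM in batch 2, so its place among those members is fixed by the difference itself. In batch 1 it was at 0.913 and 0.977 CPM in scramble libraries and at 0.954, 0.796 and 1.07 CPM in Klf4 siRNA libraries. In batch 2 it was at 2.39 and 2.19 CPM under scramble and at 2.45 CPM in the knockdown library, with no overlap between batches. The log2 difference of batch 2 minus batch 1 was 1.33 (SE 0.13, edgeR adjusted p = 1.27e-07). Nr3c2, the receptor for aldosterone, was at 5.66 to 6.44 CPM in the libraries of batch 1 and at 11.4 to 12.2 CPM in batch 2, a log2 difference of 0.95 (edgeR adjusted p = 4.85e-10). The other steroid receptor of these cells, Nr3c1, differed by -0.074 (edgeR adjusted p = 0.151).

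Esrrg had a mean of 28.9 ± 1.84 CPM in batch 1 (SD, n = 5) and 40.3 ± 1.18 CPM in batch 2 (SD, n = 3), with a log2 difference of 0.51 by edgeR (adjusted p = 4.71e-09). Its relative Esrra differed by -0.070 (edgeR adjusted p = 0.0832). Rorb had a mean of 53.2 CPM in batch 1 and 72.8 CPM in batch 2, and a log2 difference of 0.42 (edgeR adjusted p = 1.12e-09). All 3 retinoic acid receptor genes passed upward, Rarb by 0.32 (edgeR adjusted p = 0.00283), Rara by 0.20 (0.0168) and Rarg by 0.14 (0.025). Top2b, which shares exon bases with Rarb, rose by 1.05 from a mean of 21.0 to 43.6 CPM, and its part in the Rarb counts was not tested. Without Klf4 siRNA 3 none of these calls on Rarb, Rara and Rarg stood, at adjusted p of 0.119, 0.188 and 0.138. The Rara call also ended without scramble 2 (0.0602) or scramble 4 (0.0781), and the Rarg call without scramble 1 (0.0808), scramble 2 (0.0559) or scramble 4 (0.0794), and with DESeq2 (0.0568) or no filter (0.0546).

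The largest falls in batch 2 among the members at 1 CPM or more were those of Rxra, Nr2f2, Nr2f6 and Nr1h2. Rxra had a log2 difference of -0.26 (edgeR adjusted p = 0.000139), Nr2f2 of -0.24 (0.000128), Nr2f6 of -0.22 (0.000473) and Nr1h2 of -0.18 (9.78e-05). Nr2f2 was at 33.5, 33.3, 32.1, 30.1 and 30.5 CPM in batch 1 and at 28.3, 27.3 and 27.0 CPM in batch 2, without overlap. Nr1h2 was at 65.4 to 71.1 CPM in batch 1 and at 57.0 to 62.1 CPM in batch 2. Ppard, Rxrb and Nr2f1 also passed downward, by -0.17, -0.14 and -0.14. The Nr2f1 call (edgeR adjusted p = 0.0282) ended for 6 of the 8 libraries when each was left out, the adjusted p then lying between 0.0513 (without Klf4 siRNA 1) and 0.152 (without Klf4 siRNA 3). The others were without scramble 1 (0.0722), scramble 2 (0.0615), scramble 3 (0.0546) and scramble 4 (0.0546).

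The batch calls also depended on the batch label of Klf4 siRNA 4. With that library placed in batch 2, the edgeR calls ended for Nr3c2 (0.73, adjusted p = 0.0679), Rorb (0.32, 0.071), Rarb (0.23, 0.12), Rara (0.15, 0.15) and Rarg (0.11, 0.107) among the rises. Among the falls they ended for Rxra (-0.19, adjusted p = 0.0902), Ppard (-0.13, 0.0647), Nr2f1 (-0.12, 0.0827) and Vdr (-0.64, 0.0995).

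Under 1 CPM, 2 members passed by batch and are named after their values were seen. Pparg was at 0.269, 0.255, 0.325, 0.259 and 0.339 CPM in batch 1 and at 2.01, 1.62 and 1.50 CPM in batch 2. No batch 1 library reached the lowest of batch 2, and the log2 difference of 2.53 (SE 0.19, edgeR adjusted p = 1.55e-09) exceeded that of any other tested member. Vdr was lower in batch 2, with a mean of 0.269 against 0.494 CPM and a log2 difference of -0.79 (edgeR adjusted p = 0.0282). The Vdr call ended without scramble 2 (adjusted p = 0.138), scramble 4 (0.0769) or Klf4 siRNA 3 (0.177), and with DESeq2 (0.0951).

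For the NR4A genes the libraries separated by batch except for Klf4 siRNA 4. Nr4a1 was at 98.0, 111, 216 and 222 CPM in scramble 1 to 4 and at 89.0, 94.3, 211 and 261 CPM in Klf4 siRNA 1 to 4. Nr4a2, known from dopamine neurons, was at 18.5, 16.8, 29.1 and 25.6 CPM in scramble and at 15.9, 15.4, 26.2 and 24.5 CPM in Klf4 siRNA libraries. Nr4a3 was at 15.3, 17.0, 26.7 and 23.9 CPM in scramble and at 14.6, 15.0, 24.5 and 23.9 CPM in Klf4 siRNA libraries. In all 3 genes Klf4 siRNA 4, labelled batch 1, lay with or near the batch 2 libraries and above the other batch 1 libraries. For Nr4a2 it stayed under all of batch 2, so that the batches did not overlap. For Pparg, Nr1h3, Nr3c2, Esrrg and Rorb the same library lay with batch 1.

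The fit gave Nr4a1, Nr4a2 and Nr4a3 log2 differences by batch of 0.83, 0.57 and 0.57 (edgeR adjusted p = 0.24, 0.0705 and 0.0919). DESeq2 gave adjusted p of 0.199, 0.0137 and 0.0261 by batch, so Nr4a2 and Nr4a3 passed with that tool. Without Klf4 siRNA 4, a setting read out after the values were seen, they were 1.12, 0.67 and 0.68 (adjusted p = 2.14e-07, 3.97e-10 and 1.99e-10). By treatment the log2 fold changes were 0.30, 0.022 and 0.07 with all libraries (edgeR adjusted p = 0.771, 0.969 and 0.895). Without Klf4 siRNA 4 they turned to -0.13, -0.13 and -0.091 (adjusted p = 0.14, 0.135 and 0.31). Leaving out that library thus turned the direction for all 3 genes, and for Nr4a2 leaving out scramble 2 did so too (-0.026). Other immediate early genes were chosen after their values were seen. Fos was at 22.2 to 36.9 CPM in the batch 1 libraries other than Klf4 siRNA 4 and at 92.2 to 129.7 CPM in that library and batch 2. Egr1 was at 23.4 to 51.0 CPM and at 108 to 160.0 CPM in the same libraries. Ier2 split less clearly, at 1.23 to 1.56 CPM in the first set, 2.62 CPM in Klf4 siRNA 4 and 3.56 to 4.96 CPM in batch 2. Junb was at 39.0 to 50.6 CPM in the first set, 65.8 CPM in Klf4 siRNA 4 and 55.2 to 61.4 CPM in batch 2.

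**Figure D4:**
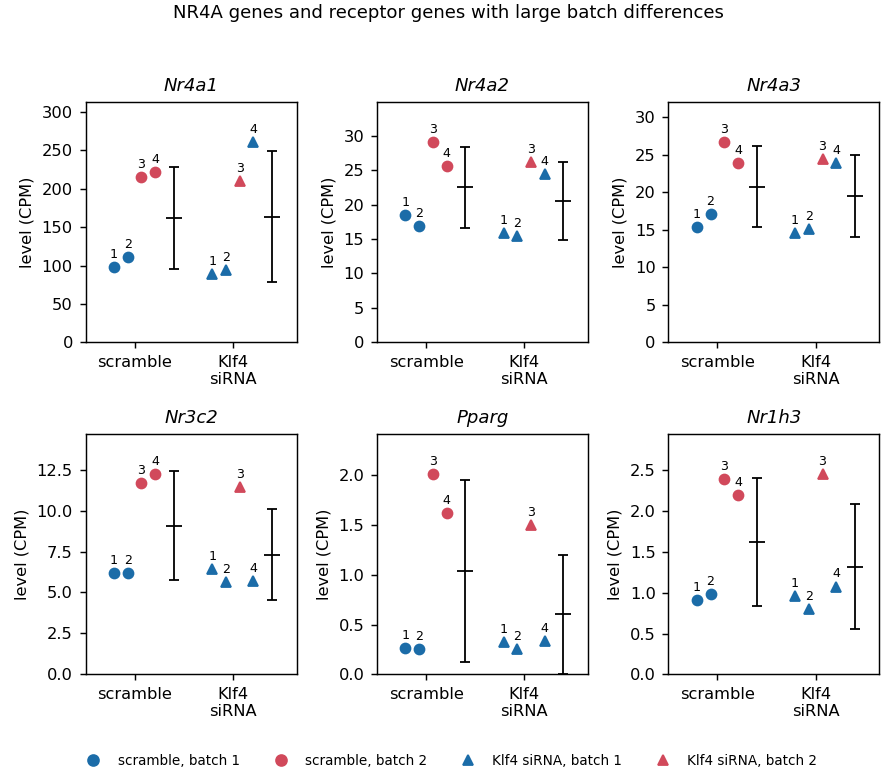
CPM on linear axes from 0 for the NR4A genes and for Nr3c2, Pparg and Nr1h3, with a numbered point per library (blue batch 1, red batch 2) and black bars for the group mean and SD (n = 4). Klf4 siRNA 4 lies with or near batch 2 for the NR4A genes (261 CPM for Nr4a1) and with batch 1 for the others (0.339 CPM for Pparg).

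Whether the treatment acted differently in the 2 batches was tested as an interaction. By edgeR 0 members passed, 0 had an unadjusted p under 0.05 and the smallest adjusted p was 0.999. Of all 16333 genes 0% passed and 540 had an unadjusted p under 0.05. Batch 2 held 1 Klf4 siRNA library, which limits what this test can show, and DESeq2 was not run on it.

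Further genes were read in 10 lists, most of them of genes that work with or downstream of the receptors. Of 110 distinct genes, 4 of them members, 90 were tested, and 8 were lower and 3 higher after Klf4 siRNA. That is 12.2%, beside the 11.7% of all genes, with a median log2 fold change of -0.0044. Klf9, a transcription factor induced by thyroid hormone and glucocorticoids, was at 51.9, 52.0, 55.4 and 55.8 CPM in scramble and at 42.0, 39.8, 43.3 and 41.2 CPM in Klf4 siRNA libraries. It fell by 0.35 on the log2 scale (SE 0.032, edgeR adjusted p = 2.12e-07), without overlap.

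Among 23 coregulators, 2 fell and 1 rose, a share of 13.0% that lay near the 11.7% of all genes. Ncoa3, a coactivator of the p160 group, was at 101 to 120.5 CPM in scramble and at 85.3 to 98.4 CPM in Klf4 siRNA libraries, which is -0.29 on the log2 scale (edgeR adjusted p = 0.00135). With no batch term the Ncoa3 call ended (0.0636). Carm1, an arginine methyltransferase recruited by p160 coactivators, had -0.17 (edgeR adjusted p = 0.000606). Nrip1, a corepressor of ligand-bound receptors, rose by 0.21 (edgeR adjusted p = 0.00722), with an adjusted p of 0.0661 without scramble 1 and 0.0526 without scramble 2. The Nrip1 call also ended with no batch term (0.12) and with the replicate block (0.0514). Of the 10 chaperones of steroid receptors 0 passed by edgeR, 1 had an unadjusted p under 0.05, and 0 passed by DESeq2.

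Of 4 tested thyroid hormone targets (6 listed), 2 fell and 1 rose, a share of 75% that rests on 3 genes, beside 11.7% of all genes. Besides Klf9, the corepressor gene Hr fell by 0.13 (edgeR adjusted p = 0.0111, and 0.125 without scramble 1). For Hr the value was -0.024 with Klf4 siRNA 4 placed in batch 2 (adjusted p = 0.904) and -0.034 with no batch term (0.936). Me1, which makes NADPH for lipid synthesis, rose by 0.19 (edgeR adjusted p = 0.000238), from 51.5 to 54.2 CPM in scramble to 59.0 to 61.9 CPM in Klf4 siRNA libraries. Of 10 tested glucocorticoid receptor targets, Klf9 was the 1 that passed. Of 14 tested PPAR targets 1 passed: Cpt1a, which carries fatty acids into mitochondria, fell by 0.21 (edgeR adjusted p = 0.0186). The Cpt1a call ended without scramble 1 (0.0506), scramble 2 (0.0734), Klf4 siRNA 1 (0.069) or Klf4 siRNA 4 (0.124).

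Of 10 tested LXR targets 1 passed: Mylip, which marks the LDL receptor for degradation, rose by 0.15 (edgeR adjusted p = 0.035). That call ended without scramble 1 (0.108), scramble 2 (0.236), Klf4 siRNA 1 (0.0845) or Klf4 siRNA 2 (0.0679). The Mylip call also ended with no batch term (0.153) and with the replicate block (0.0531). Of 10 tested genes of retinoid response and handling 2 fell. Aldh1a1, which makes retinoic acid, fell by 0.15 on the log2 scale (edgeR adjusted p = 0.00816, 0.0673 without scramble 1 and 0.0602 without scramble 2). Cyp26b1, which degrades it, had -0.60 at a mean of 1.30 CPM (edgeR adjusted p = 0.0112, 0.107 without scramble 1 and 0.0827 without Klf4 siRNA 3). With Klf4 siRNA 4 placed in batch 2 the Cyp26b1 value was -0.32 (adjusted p = 0.49), and with no batch term -0.34 (0.716). Of 9 tested ERR targets and 2 tested targets of FXR, PXR, CAR and VDR, 0 passed by edgeR, 0 had an unadjusted p under 0.05 and 0 passed by DESeq2.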

How the data were processed

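Poly(A) RNA of 8 alphaTC6 libraries was counted per gene, and the deposited table holds whole-number counts that are not normalized. The authors' use of FastQC, STAR, featureCounts, DESeq2 and the mm10 build is known from the submitters' processing notes, without versions. Use of strand is not given in the sources used here. The labels' protocol speaks of islets, whereas each library is labelled as the cell line. All 55536 identifiers matched GENCODE release M21, which gave positions and exon lengths, and 0 columns were unmapped. Promoter windows came from RefSeq (GRCm38.p6) and matched 40 of 44 members.

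Counts were filtered with filterByExpr, scaled by TMM and fitted by edgeR 4.0.16 (R 4.3.3) with robust quasi-likelihood on batch and treatment over all 16333 tested genes, with Benjamini-Hochberg adjustment and a threshold of 0.05. The design text of the series names edgeR with batch correction. CPM used TMM-scaled library sizes, and within-batch values are differences of mean log2 CPM with a prior count of 2. A standard error is the log2 fold change divided by the root of F, with 95% intervals on the same basis. The code was tested on simulated data. Alternatives were DESeq2 1.42.0, its size factors in edgeR, other filters, other batch terms, each library left out and a replicate block. The members and lists were chosen with earlier results of these data known. Named were every member at 1 CPM or more, each member that passed by treatment with all values, the 4 largest rises and falls by batch, at most 4 called genes per list (the smallest adjusted p), and otherwise genes marked as chosen after their values were seen or shown for shared exon bases or an uncalled interval.

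The lists described were coregulators, chaperones, targets of glucocorticoid and thyroid hormone receptors, PPARs, LXRs, RARs, ERRs, and of FXR, PXR, CAR and VDR. Exon overlap with another gene was found for 12 members. The result of 1 further list enters the counts over all lists and is not reported here.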

Additional observations from a re-analysis of the deposited data

Results flagged for a closer look

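In a group of at least 4 libraries, a library was marked where its gap to the nearest other, divided by the group's range, exceeded Dixon's critical value. In groups of like libraries chance would mark about 1 in 20, or 3.75 of the 75 examined, and 11 were marked. That rate does not hold for the Klf4 siRNA group, which has 3 libraries of batch 1 and 1 of batch 2, so that a batch difference alone can mark a gene. The groups also share libraries. Klf4 siRNA 3, the only knockdown library of batch 2, accounted for 7 of the marks within the Klf4 siRNA group. The batch difference of each of these genes passed the test, which rests in part on the same library. It was the highest library for Rara (ratio 0.934), Rarg (0.849), Rorb (0.937), Nr1h3 (0.831), Esrrg (0.906) and Nr3c2 (0.865), and the lowest for Ppard (0.924).

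Klf4 siRNA 4 was the lowest of the Klf4 siRNA libraries for Thra (0.957), at 97.9 CPM beside 105 CPM in the others. Among the 5 libraries of batch 1 it was the highest for Nr4a1 (0.869), at 261 CPM, and for Nr4a3 (0.735), at 23.9 CPM. Scramble 3 was the highest scramble library for Nr6a1 (0.831), at 17.9 CPM. What sets these libraries apart was not tested.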

How the results depend on the processing

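Rxra and Thra passed in all 16 alternatives run. The count of members lower after Klf4 siRNA was 4, and it was 2 with Klf4 siRNA 4 placed in batch 2, 2 with no batch term and 2 with a replicate block in place of batch. It was 6 with a filter of 5 CPM and 6 at an adjusted p under 0.1. It ranged from 2 to 5 when each library was left out, with 2 without scramble 1 and 2 without scramble 2. The count of members higher was 0, and it was 1 with a filter of 5 CPM (Nr1h2), 1 with the replicate block (Nr1h2), 2 at an adjusted p under 0.1 and 0 to 1 when each library was left out. By batch, 8 members were higher, with a range of 5 to 11 over the libraries left out (5 without Klf4 siRNA 3), and 8 were lower, with a range of 6 to 10. With Klf4 siRNA 4 placed in batch 2, 6 were higher and 5 lower by batch, and these were not all the same genes: the calls on Nr4a1, Nr4a2 and Nr4a3 (1.21, 0.66 and 0.68) and on Nr3c1 (-0.10) came in, while 5 of the rises and 4 of the falls ended. For the lists, 8 genes were lower, with 2 under no batch term and 4 to 8 over the libraries left out, and 3 were higher, with 1 under no batch term, 1 with the replicate block and 1 to 5 over the libraries left out. The interaction stayed at 0 members in the 8 alternatives run, and without Klf4 siRNA 3 it could not be fitted. The Klf4 log2 fold change was -1.39 in batch 1 alone and ranged from -1.46 to -1.24 over the libraries left out. Over all genes, 1112 were lower and 797 higher. The counts were 269 and 140 with no batch term, 682 and 538 with the replicate block, 731 and 501 in batch 1 alone, 604 and 330 without scramble 1, 643 and 369 without scramble 2, and 722 and 510 without Klf4 siRNA 3. The causes were not tested.

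The replicate numbers were not taken to pair the libraries. Deviations from the treatment group's mean correlated at 0.49, 0.42 and 0.72 for numbers 1 to 3, whose libraries share a batch. For number 4, whose libraries lie in different batches, the correlation was -0.34. Batch was not removed from these deviations, so they cannot decide on a pairing. Scramble 1, 2 and 3 each differed least from their same-numbered knockdown library (chi-square per degree of freedom 10.4, 18.3 and 18.3), and scramble 4 from Klf4 siRNA 3 (47.1). For scramble 1 and 2 that is a hint from the data and not from the design. Klf4 siRNA 3 is the only knockdown library of batch 2, so for scramble 3 and 4 pairing and batch cannot be told apart. Under the replicate block the edgeR value was -0.13 for Nr2f6 (adjusted p = 0.146), -0.21 for Rorb (0.201), -0.028 for Hr (0.855) and -0.35 for Cyp26b1 (0.343). It was 0.20 for Nrip1 (0.0514) and 0.18 for Mylip (0.0531), whose calls ended too, while Nr1h2 passed at 0.133 (0.0456).

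Directions by treatment turned for 10 members, none of which passed by treatment with all libraries. With Klf4 siRNA 4 placed in batch 2 the log2 fold change was -0.014 for Esrrg, -0.27 for Nr1h3, -0.038 for Nr4a1, -0.14 for Nr4a2 and -0.095 for Nr4a3. With no batch term it was -0.034 for Esrrg, -0.30 for Nr1h3, -0.14 for Nr4a2 and -0.091 for Nr4a3. With the replicate block it was -0.019 for Esrrg, -0.31 for Nr1h3, -0.042 for Nr4a1, -0.14 for Nr4a2 and -0.093 for Nr4a3. In batch 1 alone it was -0.010 for Nr1h3, -0.18 for Nr1h4, -0.0058 for Nr3c1, 0.22 for Pparg and -0.011 for Rxrb. Over the libraries left out it ranged from -0.0077 to 0.10 for Nr1h3, -0.18 to 0.38 for Nr1h4, -0.0032 to 0.041 for Nr3c1, -0.13 to 0.50 for Nr4a1, -0.13 to 0.086 for Nr4a2, -0.091 to 0.14 for Nr4a3, -0.010 to 0.029 for Ppard, -0.18 to 0.22 for Pparg and -0.0082 to 0.024 for Rxrb. The 15 members with too few counts were not tested, and the intervals of the tested members under 1 CPM were wide.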

Other observations

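The lists also differed between batches. Of the 90 tested genes of the lists, 25 were higher and 17 lower in batch 2, by edgeR at an adjusted p under 0.05, beside 16.8% higher and 15.9% lower of all genes tested. Glucocorticoid receptor targets had 5 of 10 tested genes higher and 0 lower in batch 2, and ERR targets had 5 of 9 higher and 0 lower. The PPAR targets had 5 of 14 higher and 3 lower, and the LXR targets had 3 of 10 higher and 3 lower. The chaperones had 0 of 10 higher and 2 lower. No test of a list was made, and the lists share genes: Klf9, for example, stands in those of the glucocorticoid and thyroid hormone receptors.

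The sum of CPM over the 44 members ran from 1182 to 1227 in the batch 1 libraries other than Klf4 siRNA 4, was 1344 in that library, and ran from 1299 to 1325 in batch 2.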
